A study of Mus musculus with 6 samples.

Results

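Integrin activation and adhesion adaptors are described here by 10 genes, Tln1, Fermt3, Vcl, Ilk, Pxn, Rap1a, Rap1b, Apbb1ip, Rasgrp2 and Ptk2b, that were chosen by name from the talin, kindlin, Rap1 and focal adhesion machinery. All 10 were found among the 36083 genes of the RNA-seq table, and all 10 were among the 12155 genes whose mean reached 1 and which were tested. The libraries came from lineage-negative (Lin-) cells of blast crisis chronic myeloid leukemia (bcCML), sorted from the spleens of transplanted mice. The recipients are given as NSG, an immunodeficient strain. The paper's methods instead describe primary bcCML transplants into sub-lethally irradiated B6.SJL mice, so the recipient strain is not settled. The leukemia was made by infecting KLS cells, the stem and progenitor fraction of bone marrow, of B6 background with BCR-ABL and NUP98-HOXA9, and both groups carry both oncogenes. By their labels, 3 libraries derive from WT donors and 3 from Sdc1-/- donors, whose allele is altered in its signal peptide so that the cells display no mature Sdc1. A legend of the study calls the WT libraries technical replicates, so every SD and p-value below may cover technical spread only. The labels give no age for donors or recipients, and all recipients were killed at the same time. Age ranges for mice differ between the paper's methods and its reporting summary. The comparison asks whether the machinery that switches integrins on differs at the RNA level between WT and Sdc1-/- bcCML, in a study of how the cells adhere and migrate.

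Integrins are adhesion receptors of an alpha and a beta chain that stay in a bent, low-affinity state until the tail of the beta chain is bound inside the cell. In blood cells, calcium activates CalDAG-GEFI (Rasgrp2), which loads the small GTPases Rap1a and Rap1b with GTP, and RIAM (Apbb1ip) links Rap1 to talin (Tln1). Talin and kindlin-3 (Fermt3) then bind the beta tail together, vinculin (Vcl) ties talin to actin, and ILK, paxillin (Pxn) and the kinase Pyk2 (Ptk2b) build the adhesion that follows. Loss of kindlin-3 or of CalDAG-GEFI impairs the adhesion of leukocytes and platelets.

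Before the results, the labels were set against the targeted gene. Sdc1 itself had values of 1.75, 1.21 and 1.51 in the WT libraries and 3.85, 3.81 and 4.12 in the Sdc1-/- libraries, so it was higher in the libraries labelled Sdc1-/- (log2 difference 0.99, limma adjusted p = 0.00012), and "Sdc1-/-" below means the libraries with that label. A swap of the group labels was not tested, and it would turn every direction given below. The disrupted part lies at the start of the gene, and a value summed over a gene cannot tell an intact from a disrupted transcript. The 4 Y-linked genes measured summed to between 0.276 and 0.308 in WT and between 68.1 and 78.4 in Sdc1-/-, so the sex of the cells moved with the group and cannot be told apart from genotype. All 12 neutrophil genes of a marker list were lower in Sdc1-/- (limma, Benjamini-Hochberg adjusted p under 0.05), with a summed level of 13260 to 14190 in WT and 4758 to 4896 in Sdc1-/-. The sort removed cells positive for Gr1 and CD11b, yet S100a8 was the most abundant gene of that list. Beside the counts of this and the following lists, 31.3% of all genes tested were lower and 29.3% higher by the same test. The 5 granulocyte-monocyte progenitor genes were also all lower (sums of 1510 to 1611 against 1003 to 1020), as were 7 of 9 tested monocyte and macrophage genes (571.6 to 592.7 against 258.6 to 266.4, Ly6c2 the most abundant). Of the 10 tested megakaryocyte and platelet genes 7 were lower and 3 higher, with sums of 532.5 to 562.5 and 540.4 to 552.9 and Pf4 the most abundant. Erythroid genes summed to 9510 to 10210 and to 5287 to 5690 (6 lower and 2 higher of 8, Hbb-bt the most abundant), and mast cell and basophil genes to 560.8 to 580.4 and to 308.8 to 317.3 (5 lower of 6, Gata2 the most abundant). Lists for T cells and B cells summed to below 3 in every library, and 7 of 8 and 5 of 6 of their genes were below 1 throughout, Cd3e among them. Of 8 stroma and endothelium genes 4 were below 1 in every library, among them the endothelial gene Cdh5, and the list summed to 41.3 to 43.4 in WT and 40.3 to 40.7 in Sdc1-/- (Col1a2 the most abundant, 2 lower and 1 higher of 3 tested). The progenitor genes Kit, Cd34, Myb and Meis1 were present in all libraries, and the list of 8 summed to 243.8 to 254.8 and 282.3 to 285.9 (5 higher, 3 lower, Hoxa9 the most abundant). The adaptors are genes that neutrophils and platelets use too, and the part of these cell types in the values below was not tested. In bulk RNA, fewer cells of a type and less RNA per cell cannot be told apart.

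The values are TPM, an abundance corrected for transcript length that may be compared between genes, rescaled between libraries by the authors. Their sums ran from 1048875 to 1058263 in WT and from 944973 to 951814 in Sdc1-/-. Reads per library are unknown, so no counting error can be given. Changes are log2 differences of value + 1, Sdc1-/- minus WT, fitted by limma over all 12155 genes. With the values as deposited, the median log2 change of all genes was -0.0097. With libraries rescaled to equal sums of 1000000 it was 0.12, a shift as large as the changes of several adaptors, and the direction of each of the 10 adaptors is given with what that rescaling does to it. Of the other pathway genes named as higher or lower below, Lims1, Parvg, Rap2b and Dok1 lost their call after that rescaling, and Dok1 alone changed sign.

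All 10 adaptors were well expressed, with mean percentiles between 88.2 (Pxn) and 98.2 (Fermt3) of all genes in the table. In WT the order of levels was Rap1a (234), Fermt3 (212.5), Rap1b (133), Ilk (106), Tln1 (73.4), Apbb1ip (52.9), Vcl (38.5), Rasgrp2 (30.2), Pxn (28.9) and Ptk2b (24.15), in means of rescaled TPM over 3 libraries. Only Rasgrp2 and Pxn overlapped among neighbours in that order. In Sdc1-/- the order was Fermt3 (204), Rap1a (169), Rap1b (109), Ilk (95.8), Tln1 (82.55), Apbb1ip (44.9), Vcl (37.1), Ptk2b (30.1), Rasgrp2 (28.1) and Pxn (23.4), and only Ptk2b and Rasgrp2 overlapped among neighbours. Kindlin-3 and Rap1a therefore changed places at the top, and Pyk2 rose from the last place to the eighth while paxillin took the last. An order within a library does not depend on how the libraries are scaled to each other.

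With the values as deposited, 5 adaptors (Rap1a, Pxn, Rap1b, Apbb1ip and Ilk) were lower and 1 (Ptk2b) was higher in Sdc1-/- at an adjusted p under 0.05, and 4 (Tln1, Rasgrp2, Fermt3 and Vcl) did not pass. Over all genes tested, 31.3% were called lower, 29.3% higher and 60.7% either way, so 6 of 10 is the background share, and the number of adaptors called is not a result about them. The 3 values of a group lay wholly above or below those of the other in 7 of the 10 adaptors and in 66.7% of all genes tested (34.2% lower and 32.6% higher in Sdc1-/-). The median log2 change of the 10 was -0.12, and their median absolute change was 0.20 against 0.23 over all genes tested. After rescaling to a sum of 1000000, 2 adaptors were lower (Rap1a and Pxn) and 2 higher (Ptk2b and Tln1), where the shares of all genes were 19.5% and 43.5% (63% either way), and their median was 0.0225. Quantile normalization left 3 lower (Rap1a, Pxn and Apbb1ip) and 2 higher (Ptk2b and Tln1), against 28.4% and 31.1% of all genes (59.5% either way). The calls of Rap1a, Pxn and Ptk2b were made under every scaling tried.

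**Figure D1:**
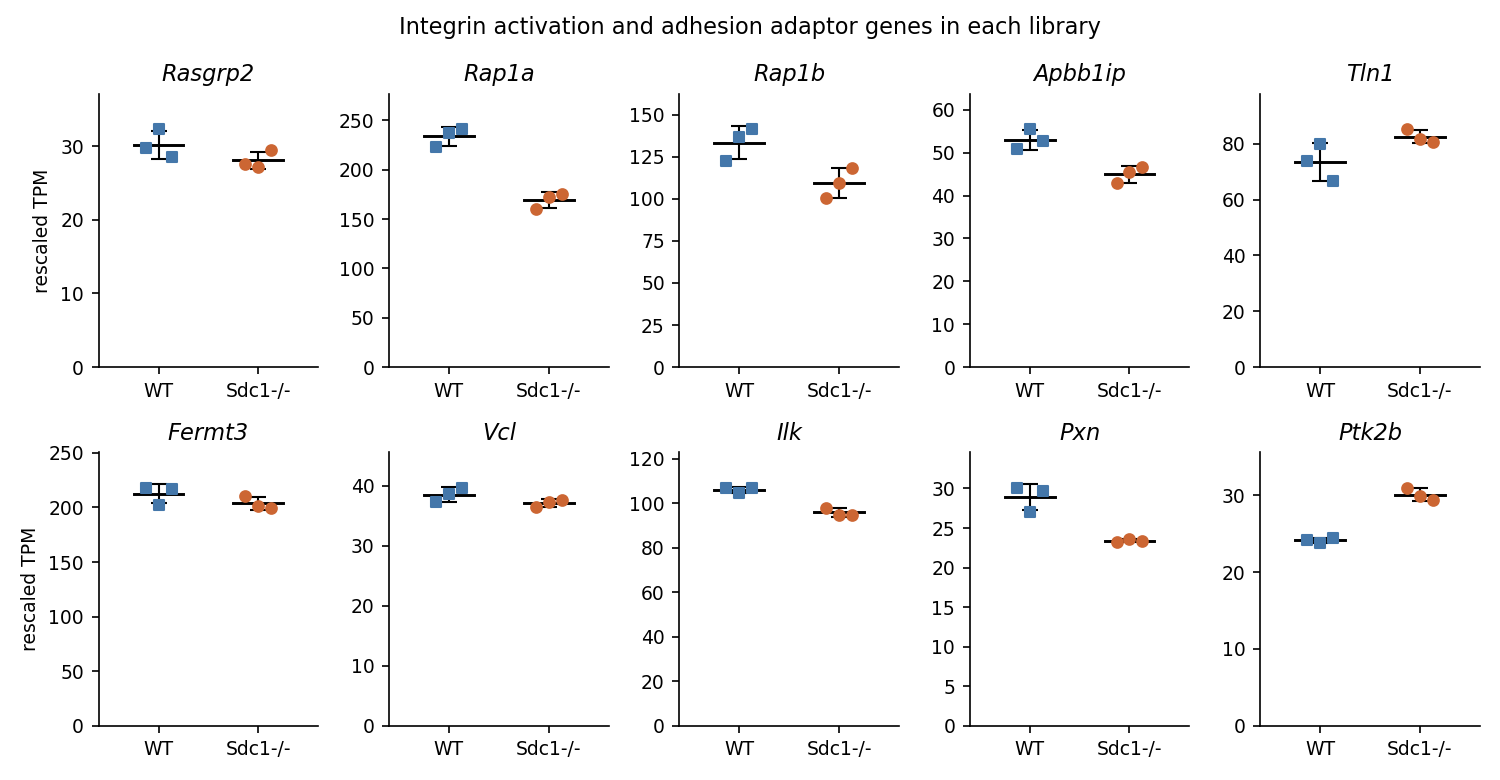
Rescaled TPM (vertical axis, from 0) of each of the 10 adaptors in the 3 WT libraries (blue squares) and the 3 libraries labelled Sdc1-/- (orange circles), with the mean (line) and SD (bar) of each group. Rap1a sits between 223 and 241 in WT and between 160 and 175 in Sdc1-/-, and Ptk2b is the adaptor whose 3 Sdc1-/- values all exceed WT by the clearest margin.

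With the values as deposited, Rap1a had the largest change of the 10 adaptors (after rescaling to equal sums it was Ptk2b). Rap1a encodes a small GTPase that recruits talin to the membrane when bound to GTP, on mouse chromosome 3 (105727267 to 105801336, minus strand, GRCm38). Its values were 223, 238 and 241 in WT and 160, 172.5 and 175 in Sdc1-/-. All 3 Sdc1-/- libraries lay below all 3 WT libraries, with means of 234 ± 9.41 and 169 ± 8.14 (SD, n = 3 in each group). Limma put the log2 change at -0.47 with a standard error of 0.047 (Benjamini-Hochberg adjusted p = 0.00016), and 11.6% of all genes tested had a lower one. It was -0.32 after rescaling to equal sums (limma, adjusted p = 0.0012) and ran from -0.50 to -0.43 with each library left out in turn.

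Rap1b, the close paralog of Rap1a and the form best known from platelets, lies on chromosome 10 (117813871 to 117846035, minus strand). Its values were 122, 136 and 141 in WT and 100.4, 109.5 and 118 in Sdc1-/-. The groups did not overlap, but the highest Sdc1-/- library came close to the lowest WT library. Limma gave a log2 change of -0.285 with a standard error of 0.074 (adjusted p = 0.013), and after rescaling to equal sums it was -0.14 and no longer passed (adjusted p = 0.16).

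The coding sequences of Rap1a and Rap1b in GENCODE M21 are both 555 bases long and identical at 453 positions (81.6%). The sequence below is shown because it is the longest run that both share, and it is shorter than the words of 31 bases by which transcripts were compared here. It starts at base 79 of the Rap1a coding sequence.
shared run: atttttgttgaaaaatatga
Rap1b shared 0 of its 2881 words of 31 bases with another annotated gene. Of the 2660 words of Rap1a, 348 (13.1%) also occur in other genes, 314 of them in the pseudogene Gm9392 and 55 in Rap1a-ps2. Gm9392 had values of at most 1.08 and Rap1a-ps2 of at most 0.065, far below Rap1a. Rap1b made up 36.3% ± 0.79 of Rap1a and Rap1b together in WT and 39.2% ± 0.92 in Sdc1-/- (SD, n = 3 in each group). That share was 35.4, 36.5 and 37.0% in WT and 38.6, 38.8 and 40.3% in Sdc1-/-, without overlap (two-sided exact permutation test, p = 0.1, which 3 against 3 libraries cannot go below).

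Rasgrp2 encodes CalDAG-GEFI, the calcium-sensing exchange factor that loads Rap1 in platelets and neutrophils (chromosome 19, 6399340 to 6415216, plus strand). It stood at 29.7, 32.3 and 28.6 in WT and at 27.6, 27.2 and 29.4 in Sdc1-/-, so the groups overlapped. The fitted log2 change was -0.10 with a standard error of 0.055 (limma, adjusted p = 0.15) and turned to 0.04 after rescaling to equal sums. Within the RasGRP family Rasgrp2 supplied 80.7, 82.0 and 80.3% of the summed value in WT and 83.7, 82.5 and 84.1% in Sdc1-/- (two-sided exact permutation test, p = 0.1). Its paralog Rasgrp4, an exchange factor of myeloid and mast cells that acts on Ras, was lower, at 6.08 ± 0.10 in WT and 4.39 ± 0.15 in Sdc1-/- (SD, n = 3). Rasgrp1 stood at 0.70 and 1.07 and Rasgrp3 at 0.28 and 0.099 in means of WT and Sdc1-/-, both below the minimum mean for the test.

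Apbb1ip encodes RIAM, the adaptor that carries talin to Rap1 at the membrane (chromosome 2, 22774094 to 22875653, plus strand). Its values were 50.7, 55.45 and 52.6 in WT and 42.8, 45.4 and 46.5 in Sdc1-/-. All Sdc1-/- libraries lay below all WT libraries. On the log2 scale the change was -0.23 with a standard error of 0.047 (limma, adjusted p = 0.0047), and it was -0.09 after rescaling to equal sums, where it did not pass (adjusted p = 0.17). The list of other Rap effectors and immune adaptors had 3 lower, 1 higher and 2 uncalled genes among 6 tested, and 3 lower and 3 higher after rescaling to equal sums. Among all genes tested, 31.3% were lower and 29.3% higher, and after that rescaling 19.5% and 43.5%. RAPL (Rassf5), a Rap1 effector of leukocytes, was at 39.2 ± 0.20 in WT and 26.3 ± 0.32 in Sdc1-/- (SD, n = 3), with a log2 change of -0.56 and -0.42 after rescaling to equal sums. Its partner kinase Mst1 (Stk4) was lower by the same comparison, with a log2 change of -0.38. Krit1, a Rap1 effector of endothelial junctions, was higher, at 11.2 ± 0.087 and 16.25 ± 1.44 (SD, n = 3).

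A list of Rap regulators held the Rap2 GTPases with exchange factors of the Rap and RasGRP families, and a separate list held the proteins that turn Rap off. Of 8 tested genes of the former, 4 were lower and 0 higher (limma, adjusted p under 0.05), with a median log2 change of -0.17, and after rescaling to equal sums 3 were lower and 1 higher. Among them Epac1 (Rapgef3), a cAMP-gated exchange factor for Rap, was at 26.8 ± 1.30 in WT and 17.5 ± 0.587 in Sdc1-/- (SD, n = 3), with no overlap and a log2 change of -0.59 (limma, adjusted p = 5.8e-05). Rapgef6 changed by -0.31 and Rap2b by -0.18 on the log2 scale, and the change of Rap2b did not pass after rescaling to equal sums (adjusted p = 0.47) or without replicate 2 or 3 of WT or with any 1 Sdc1-/- library left out (0.059 to 0.079). Of 6 tested Rap GTPase-activating proteins, which turn Rap off, 5 were higher and 1 lower, with a median log2 change of 0.23, and the same 5 and 1 were called after rescaling to equal sums. Over all genes tested 29.3% were higher and 31.3% lower, and after rescaling to equal sums 43.5% and 19.5%. Sipa1l2, the seventh gene of the list, was too low to be tested, with means of 0.36 in WT and 0.16 in Sdc1-/-. Rasa3, which acts on Rap1 and Ras in platelets, had values of 13.86, 13.95 and 14.11 in WT and 19.22, 18.69 and 17.99 in Sdc1-/- and a log2 change of 0.39 with a standard error of 0.040 (limma, adjusted p = 0.00017). Sipa1 (SPA-1), a Rap1 inactivator of leukocytes, stood at 16.4 ± 0.78 and 18.35 ± 0.66 (SD, n = 3) with a log2 change of 0.15. Its call was lost under quantile normalization (adjusted p = 0.068 from limma), with no minimum mean (0.053) and without replicate 2 or 3 of WT or replicate 1 or 3 of Sdc1-/- (0.083 to 0.09). Its relatives Sipa1l1 and Sipa1l3 had log2 changes of 0.27 and 0.20. Rap1gap and Rap1gap2, named after their values were seen because their levels were below the limit for naming, went opposite ways. Rap1gap was low, at 1.05, 0.74 and 1.06 in WT and 2.89, 2.13 and 2.35 in Sdc1-/-, while Rap1gap2 was at 5.40, 5.25 and 5.01 and at 2.52, 2.87 and 3.19.

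Talin and kindlin bind the integrin tail directly. Tln1 (chromosome 4, 43531519 to 43562691, minus strand) had values of 73.71, 79.95 and 66.48 in WT and 85.2, 81.7 and 80.8 in Sdc1-/-. The WT libraries were the more spread, and the highest of them lay just below the lowest Sdc1-/- library. Limma estimated a log2 change of 0.17 with a standard error of 0.066 (adjusted p = 0.057), short of the threshold, and it passed after rescaling to equal sums (0.32, adjusted p = 0.0043) and without replicate 2 of WT (0.23, adjusted p = 0.011). With the deposited scaling it also passed when the minimum mean was 5 (adjusted p = 0.048 from limma). Tln2, the other talin gene, was at 0.90 ± 0.031 in WT and 1.24 ± 0.078 in Sdc1-/- (SD, n = 3), so that Tln1 supplied 98.8% ± 0.072 and 98.5% ± 0.049 of the summed talin value. The call of Tln2 as higher (log2 change 0.24, limma adjusted p = 0.027, and 0.42 with a pseudocount of 0.1) was lost with any 1 WT library left out or without replicate 1 or 2 of Sdc1-/- (0.056 to 0.081). Of the 9841 words of Tln1, 330 (3.4%) occur on the opposite strand of Creb3, which was lower (23.35 ± 1.63 in WT and 13.53 ± 0.813 in Sdc1-/-, SD, n = 3).

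Fermt3 (chromosome 19, 6998958 to 7019469, minus strand) encodes kindlin-3, the kindlin of blood cells. It had values of 218, 202 and 217 in WT and 211, 201 and 199.7 in Sdc1-/-, and the groups overlapped. The fitted log2 change was -0.06 with a standard error of 0.040 (limma, adjusted p = 0.24), with the opposite sign (0.09) after rescaling to equal sums. Fermt3 made up over 99% of the summed kindlin value in every library, between 99.89 and 99.97%. Fermt1 and Fermt2 were below 0.25 in every library. The change of Fermt3 passed the threshold under no scaling tried.

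Vcl encodes vinculin (chromosome 14, 20929398 to 21033676, plus strand). Its values were 37.25, 38.66 and 39.69 in WT and 36.39, 37.26 and 37.62 in Sdc1-/-, so that 2 Sdc1-/- libraries fell within the WT range. Limma gave a log2 change of -0.05 with a standard error of 0.036 (adjusted p = 0.24) and 0.09 after rescaling to equal sums. Of the 8161 words of Vcl, 2064 (25.3%) lie on the opposite strand of Ap3m1, which was itself lower (71.9 ± 1.71 and 49.6 ± 3.49, SD, n = 3). The library kit marks strand, but whether strand was used in assigning reads is not given in the sources used here, so reads of the overlap cannot be placed with certainty.

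The promoters of 7 of the 10 genes were found in RefSeq (GRCm38.p6), each from 250 bases before to 50 after the start site, 9 windows in all. Pxn, Rap1a and Ptk2b had no entry. Stretches of 30 bases upstream of the RefSeq start site are shown, with the motif searched for in capitals, so that start regions may be compared. They are from genes that did not pass the test (Fermt3, Vcl) and genes called lower (Rap1b, Apbb1ip). Positions count from the RefSeq start site. The gene bounds given in this report are those of GENCODE M21, and the 2 annotations place some starts differently. The stretches of Rap1b and Apbb1ip lie inside those bounds (chr10 to 117846035, minus strand, and chr2 from 22774094, plus strand), and those of Fermt3 and Vcl lie outside.
Fermt3, first base of the motif at -24, chr19:7019476-7019505, minus strand: tccctcatttccTGTGGTaacaaaagcaag
Fermt3, at -61, chr19:7019513-7019542, minus strand: taaagagaacttTGTGGTgtcaccccagca
Vcl, at -227, chr14:20929161-20929190, plus strand: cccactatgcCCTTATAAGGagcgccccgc
Rap1b, at -42, chr10:117845998-117846027, minus strand: ggctgaacgccTGACGTCAaggcgacaccg
Apbb1ip, at -172, chr2:22774143-22774172, plus strand: tgaccttagggcAGGAAGtgttttcttcca
TGTGGT is the core bound by RUNX factors, the capitals in Vcl are a CArG box, the element of serum response factor, TGACGTCA is the cAMP response element, and AGGAAG is a core of ETS factors. On both strands, TGTGGT occurred in 3 of the 9 windows (Fermt3 and Ilk) and in 16.8% of all 32851 promoter windows. The 2 windows of Ilk overlap and hold the same TGTGGT site. The CArG box occurred in 1 of the 9 (Vcl) and in 1.6% of all windows, and TGACGTCA in 1 (Rap1b) and in 1.8%. AGGAAG occurred in 2 (Apbb1ip and Fermt3) and in 35.4%. GGGCGG, the core of Sp and KLF factors, occurred in 5 of the 9 (Ilk, Rap1b, Rasgrp2 and Vcl) and in 35.7% of all windows. CACGTG, the E-box of MYC, occurred in 1 (Ilk) and in 7.2%. Of the genes called lower with the values as deposited, Rap1b and Apbb1ip had none of the 6 motifs in common, while Ilk and Rap1b shared GGGCGG. A match is a match of letters only.

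**Figure D2:**
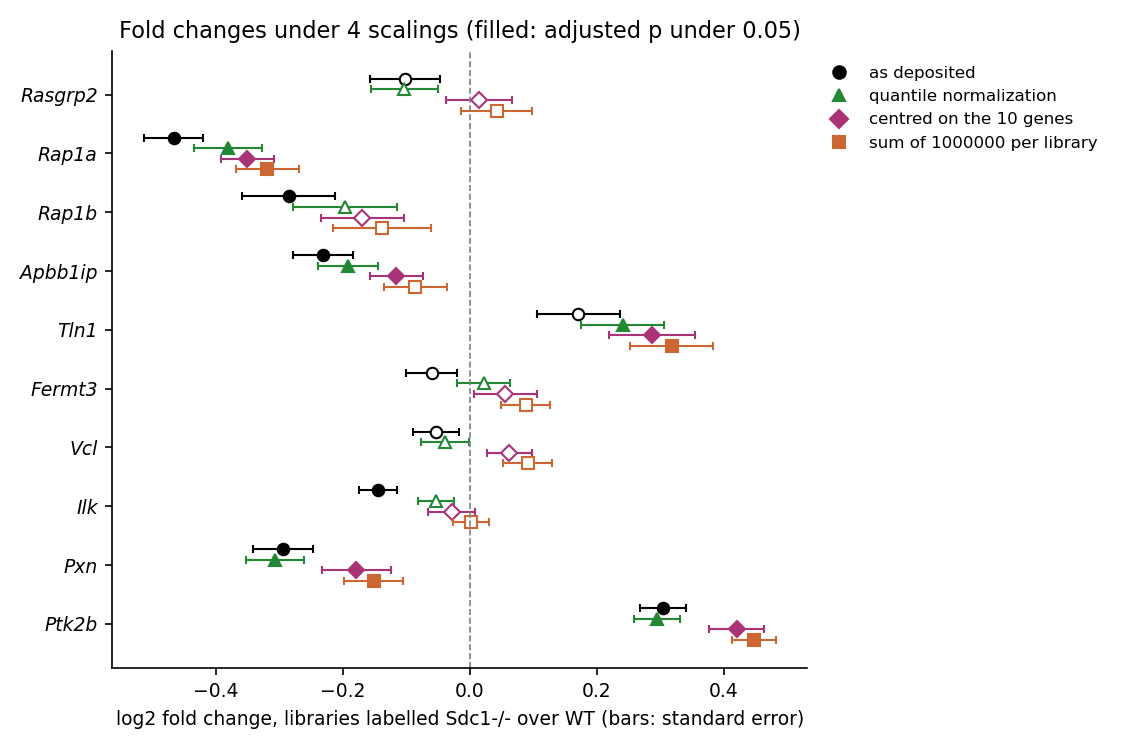
Log2 fold change of each adaptor (horizontal axis, Sdc1-/- over WT, bars are standard errors) under 4 scalings, with filled symbols for an adjusted p under 0.05 from limma. Rap1a, Pxn, Rap1b and Apbb1ip stay to the left of 0 and Ptk2b and Tln1 to the right under all 4. When libraries are rescaled to equal sums, Rap1b and Apbb1ip are unfilled, and Fermt3, Vcl, Ilk and Rasgrp2 cross 0.

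Ilk, paxillin and Pyk2 belong to the adhesion complex that assembles on the bound integrin. Ilk, the pseudokinase that joins PINCH and parvin (chromosome 7, 105736592 to 105742925, plus strand), had values of 107, 104 and 107 in WT and 97.9, 94.6 and 94.8 in Sdc1-/-. The groups did not overlap. On the log2 scale the change was -0.14 with a standard error of 0.030 (limma, adjusted p = 0.0047), and after rescaling to equal sums it was 0.0027 (adjusted p = 0.94), so its direction rests on the scaling. Ilk is also the adaptor with the most shared sequence, since 2204 of its 2936 words (75.1%) occur on the opposite strand of other genes, 1937 of them in Taf10, and 455 in the pseudogene Gm6263 on the same strand. Taf10 had a mean of 327 in both groups, and Gm6263 was at most 0.11, but the split of reads between Ilk and Taf10 is uncertain.

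Of the 6 listed partners of ILK 4 were tested, and these 4 were called lower with a median log2 change of -0.23 (all genes tested, 31.3% lower). After rescaling to equal sums 2 (Parvb and Rsu1) were called lower (all genes tested, 19.5%). Both of these calls lay at the threshold (limma, adjusted p of 0.05 after rounding for Parvb and 0.045 for Rsu1). Parvg (γ-parvin), the parvin of blood cells, had values of 167, 169 and 175 in WT and 149, 141 and 142 in Sdc1-/-, a log2 change of -0.24 that no longer passed after rescaling to equal sums (limma, adjusted p = 0.053). Rsu1, which binds PINCH, was at 193 ± 3.33 and 165 ± 2.07, and Lims1 (PINCH-1) at 34.2 ± 0.95 and 29.15 ± 0.71 (SD, n = 3 in each group). Parvb was low, at 6.78 ± 0.72 and 4.69 ± 0.93. Parva and Lims2, the forms of other tissues, were below 1 in every library. Within a library, Ilk was 0.62 ± 0.015 times Parvg in WT and 0.67 ± 0.0087 times in Sdc1-/- (SD, n = 3).

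Pxn (chromosome 5, 115506676 to 115555987, plus strand) encodes paxillin, the scaffold of focal adhesions. Its values were 30.1, 27.0 and 29.7 in WT and 23.2, 23.6 and 23.3 in Sdc1-/-. All Sdc1-/- libraries lay below all WT libraries, and their spread was the smaller (28.9 ± 1.68 and 23.4 ± 0.22, SD, n = 3). The fitted log2 change was -0.29 with a standard error of 0.048 (limma, adjusted p = 0.0015) and -0.15 after rescaling to equal sums, still past the threshold (adjusted p = 0.025). Pxn shared 0 of its 8319 words with another gene. Leupaxin (Lpxn), the paxillin of leukocytes, was lower too. It had values of 25.3, 25.2 and 25.1 in WT and 9.43, 9.46 and 10.4 in Sdc1-/- and a log2 change of -1.28 with a standard error of 0.047 (limma, adjusted p = 2.6e-06) and -1.14 after rescaling to equal sums.

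Ptk2b encodes Pyk2, the calcium-responsive relative of focal adhesion kinase that blood cells use (chromosome 14, 66153257 to 66281052, minus strand). Its values were 24.2, 23.8 and 24.4 in WT and 30.98, 29.88 and 29.35 in Sdc1-/-. Every Sdc1-/- library exceeded every WT library, with means of 24.15 ± 0.32 and 30.1 ± 0.83 (SD, n = 3). Limma put the log2 change at 0.30 with a standard error of 0.036 (adjusted p = 0.00033) and 0.45 after rescaling to equal sums (adjusted p = 4.3e-05). Focal adhesion kinase itself (Ptk2) was lower in level but also higher in Sdc1-/-, with values of 4.82, 4.36 and 4.82 in WT and 7.95, 5.96 and 8.60 in Sdc1-/- and a log2 change of 0.57 with a standard error of 0.12 (limma, adjusted p = 0.0050). The Sdc1-/- libraries were uneven for Ptk2, and Ptk2b made up 83.8% ± 0.61 of both kinases in WT and 80.1% ± 3.05 in Sdc1-/- (SD, n = 3).

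In the list of the paxillin, FAK and Cas scaffold, 6 genes were lower and 3 higher of 11 tested, with a median log2 change of -0.19, and after rescaling to equal sums 2 (Nedd9 and Lpxn) were lower and 3 higher. Nedd9 (Cas-L), a docking protein of leukocyte migration, had values of 6.075, 8.14 and 8.22 in WT and 2.59, 2.96 and 3.45 in Sdc1-/-, a log2 change of -1.08 (limma, adjusted p = 0.00033). Crkl, an adaptor phosphorylated by BCR-ABL, was higher, at 12.2 ± 0.12 and 14.9 ± 0.14 (SD, n = 3). Inhibitors of the integrin tail gave 2 higher, 1 lower and 3 uncalled genes of 6, and 5 higher, 0 lower and 1 uncalled after rescaling to equal sums. Sharpin, which holds integrins inactive, was at 42.2, 40.46 and 43.65 in WT and at 53.0, 53.9 and 52.1 in Sdc1-/-, a log2 change of 0.33 (limma, adjusted p = 0.00032) and 0.47 after rescaling to equal sums. Dok1, a phosphotyrosine adaptor that competes with talin, was lower by a log2 change of -0.12 that turned to 0.027 after rescaling to equal sums and was not called with any 1 WT library left out or without replicate 1 or 2 of Sdc1-/- (limma adjusted p of 0.067 to 0.14). Actin linkers gave 7 lower, 0 higher and 3 uncalled genes of 10 (median log2 change -0.27), and 5 lower and 1 higher after rescaling to equal sums. Beside the counts of these 3 lists, 31.3% of all genes tested were lower and 29.3% higher. After rescaling to equal sums the shares of all genes were 19.5% and 43.5%. Tensin-1 (Tns1) went from 13.1 ± 1.46 to 6.86 ± 0.83, zyxin (Zyx) from 96.7 ± 7.71 to 74.25 ± 1.77, α-actinin-4 (Actn4) from 156 ± 1.91 to 127 ± 1.76 and Lasp1 from 54.3 ± 1.73 to 41.9 ± 1.22 (SD, n = 3 in each group).

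**Figure D3:**
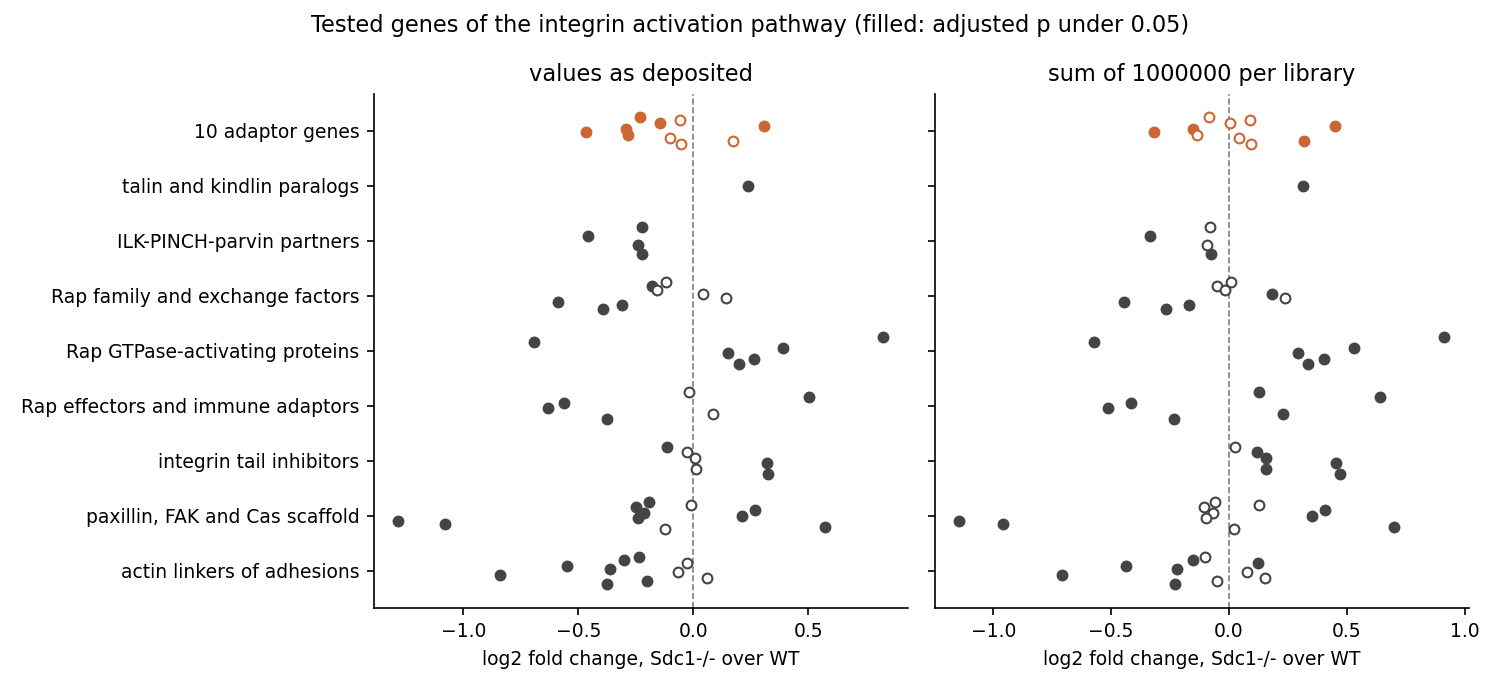
Log2 fold change (horizontal axis, Sdc1-/- over WT) of every tested gene of the 10 adaptors (orange) and of the other lists of the integrin activation pathway (grey), with the values as deposited (left) and rescaled to equal sums of 1000000 (right), filled where the adjusted p from limma was under 0.05. The 5 higher and 1 lower Rap GTPase-activating proteins are called on both sides, while several ILK partners and scaffold genes lose their fill on the right.

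Over the 69 other genes of these lists, 52 were tested, 26 were lower, 12 higher and 14 uncalled with the values as deposited (all genes tested, 31.3% lower and 29.3% higher). After rescaling to equal sums, 16 were lower and 19 higher (all genes tested, 19.5% and 43.5%). The median log2 change of the 52 was -0.14 and -0.0056 in turn, beside -0.0097 and 0.12 for all genes.

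Ratios within a library do not change when all its values are multiplied by the same factor, though quantile normalization can change them. The pairs given were chosen after the values were seen, so no test is attached to them, and no share over other gene pairs was computed. Fermt3 was 0.98, 0.85 and 0.90 times Rap1a in WT and 1.32, 1.16 and 1.14 times in Sdc1-/-. Tln1 was 0.33, 0.34 and 0.28 times Rap1a in WT and 0.53, 0.47 and 0.46 times in Sdc1-/-. Ptk2b was 0.81, 0.88 and 0.82 times Pxn in WT and 1.33, 1.27 and 1.26 times in Sdc1-/-. In each of these 3 ratios all Sdc1-/- libraries lay above all WT libraries. The amounts of talin and kindlin-3 RNA relative to Rap1a RNA, and of Pyk2 RNA relative to paxillin RNA, were thus higher whatever factor multiplies each library. Every other pair computed was also without overlap between groups, for example Ilk over Rsu1 (means of 0.55 in WT and 0.581 in Sdc1-/-). Separation is therefore not particular to these 3 ratios. Vcl was 0.53 ± 0.060 times Tln1 in WT and 0.45 ± 0.020 times in Sdc1-/- (SD, n = 3).

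**Figure D4:**
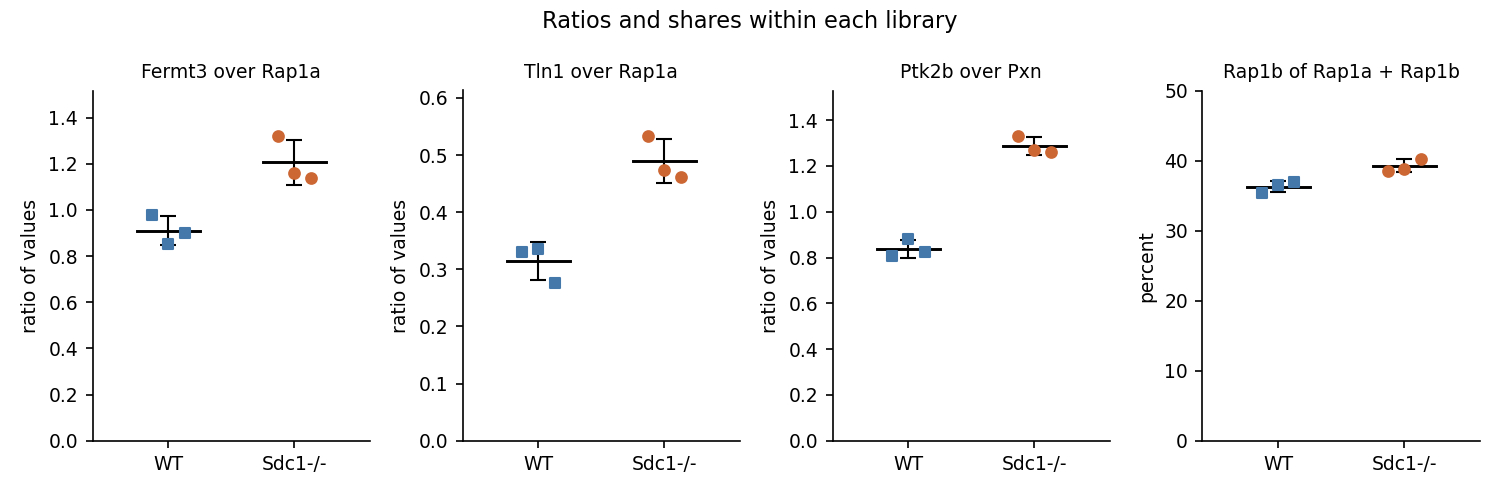
Ratios of rescaled TPM within each library for 3 pairs of adaptors and the share of Rap1b in Rap1a plus Rap1b in percent (vertical axes, from 0), in the WT (blue squares) and Sdc1-/- (orange circles) libraries, with mean (line) and SD (bar), n = 3. The Fermt3 to Rap1a ratio is below 1 in all WT libraries and above 1 in all Sdc1-/- libraries, as is the ratio of Ptk2b to Pxn.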

How the data were processed

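The labels assign 3 RNA-seq libraries of Lin- bcCML cells to WT and 3 to Sdc1-/-. Total RNA (150 ng) went into stranded mRNA libraries read from one end over 75 bases. Reads were assigned by the authors with kallisto and summarised per gene with sleuth 0.30.0. They deposited a signal per gene and library, TPM rescaled between libraries, for mm10 per the labels. The kallisto version and transcriptome are not given in the sources used here. Depth is unknown. A second deposited table holds the authors' own sleuth test (p-values, q-values and effect sizes) and was not used. A legend of the study calls the WT libraries technical replicates, so SDs and p-values may cover technical spread only.

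Of the 36083 identifiers, 35454 matched a GENCODE M21 symbol. Xist was listed with the Y-linked genes, but no identifier matched it, so it was not analysed here. The log2(value + 1) of every gene whose mean reached 1 was fitted with limma 3.58.1 (R 4.3.3) on group alone, using a variance trend and Benjamini-Hochberg adjustment at 0.05 over all 12155 genes, after it had been tested on simulated data. Alternatives changed the pseudocount (0.1, 0.5), the minimum mean (none, 5), the scaling (sum of 1000000, quantiles, and, added after seeing the data, centring on the 10 genes) or used no variance trend, a block for the replicate number, or 1 library fewer. Members, lists and tests were chosen with earlier results of these data known. Of each of 8 pathway lists, at most 4 called genes were named, those of largest absolute change whose mean reached 5, along with the paralogs of members. Some genes of the lists are not reported here by name. Sequences came from GENCODE M21 and RefSeq. Other steps used Python 3.11.15, pandas 2.3.3, scipy 1.17.1 and matplotlib 3.10.9.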

Additional observations from a re-analysis of the deposited data

How the results depend on the processing

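The scaling between libraries decided most of what changed. With libraries rescaled to equal sums of 1000000, 2367 genes were called lower in place of 3810, 2 adaptors lower and 2 higher in place of 5 and 1, and 16 other pathway genes lower and 19 higher in place of 26 and 12. The signs of Fermt3 (0.088), Vcl (0.091), Ilk (0.0027), Rasgrp2 (0.042) and Dok1 (0.027) turned, the calls of Rap1b (-0.14) and Apbb1ip (-0.086) were lost, and Tln1 passed (0.32). Quantile normalization gave 3 lower and 2 higher adaptors, with Fermt3 at 0.022, Ilk at -0.053 and Rap1b at -0.20 (both no longer called) and Tln1 at 0.24 (called). Centring on the 10 genes, added after seeing the data, also gave 3 and 2, with Fermt3 at 0.056, Vcl at 0.063, Rasgrp2 at 0.015, Ilk at -0.028 and Rap1b at -0.17 (both no longer called) and Tln1 at 0.29 (called). Tln1 was called higher at 0.17, making 2 higher adaptors, with a minimum mean of 5 (adjusted p = 0.048 from limma) and with a replicate block (adjusted p = 0.043). The pseudocounts, no minimum mean and no variance trend moved no call of the 10 adaptors. Among the other named genes, no minimum mean ended the calls of Parvb (adjusted p = 0.05), Rap2b (0.054), Sipa1 (0.053) and Dok1 (0.067), all from limma, and no variance trend ended that of Dok1 (0.062). A pseudocount of 0.1 moved Tln2 to 0.42 and Rap1gap to 1.29 from 0.83.

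With each library left out in turn, the adaptors called lower stayed at 5 and those called higher were 1 to 2 (2 without WT replicate 2, where Tln1 passed at 0.23), and 7 to 8 adaptors did not overlap between groups. The share of all genes without overlap was not computed for those fits. Leaving a library out cannot make separated values overlap, so that count is no sign of stability. All genes called were 3083 to 3353 higher and 3380 to 3608 lower, and other pathway genes 9 to 11 higher and 23 to 25 lower. The log2 fold change of Tln1 ran from 0.10 to 0.23, that of Rap1b from -0.35 to -0.23, that of Rap1a from -0.50 to -0.43, that of Pxn from -0.34 to -0.27 and that of Ptk2b from 0.28 to 0.32. The correlations of deviations of same-numbered libraries were 0.151, -0.008 and 0.018, and those of differently numbered libraries ran from -0.157 to 0.142. These values gave no clear sign that replicate numbers pair the libraries, and a batch shared by number was not tested. The replicate block also left Tln2 uncalled (limma, adjusted p = 0.051). Without counts, depth cannot be weighed, and with 3 against 3 libraries an exact permutation test cannot go below p = 0.1.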
